A study of Mus musculus with 8 samples.

Results

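The complement genes of the mouse bladder were compared between animals with a surgically narrowed bladder outlet and sham-operated animals. The 31 members were fixed by a list of gene names that uses no measured value in its rule, although earlier results of these data were known when it was drawn up. Of these, 29 were taken from a list of components, receptors and regulators, and C1s1 (C1s in the files) and C5 (Hc in the files) were added as 2 further members. All 31 were found among the 38926 gene symbols of the files, and all 31 were among the 16370 genes that passed the filter on low counts. By role they comprised 7 classical pathway components, 3 of the alternative pathway (C3 was counted here, although every pathway uses it), 4 of the lectin pathway, 4 of the terminal pathway, 2 anaphylatoxin receptors, 4 soluble regulators, 4 membrane regulators and 3 C1q-related proteins.

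Polyadenylated RNA of whole mouse bladder was sequenced in 8 libraries, 4 from NeMO bladders and 4 from Sham bladders. NeMO is a nerve-sparing model of partial obstruction of the outlet, and Sham animals had the sham operation. The strain, sex and age of the mice, the time since surgery, the severity of obstruction and whether each library is 1 animal are not given in the labels, so p-values measure only the spread between these libraries. File names carry a batch mark. It places NeMO replicates 1 and 3 and Sham replicates 1, 2 and 3 in batch 1, and NeMO replicates 2 and 4 and Sham replicate 4 in batch 2.

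Complement is a cascade of plasma and tissue proteins that tags microbes, immune complexes and dying cells. The classical pathway starts when C1q, carrying the proteases C1r and C1s, binds its target. The lectin pathway uses collectins and the MASP proteases, and the alternative pathway amplifies deposited C3b with factor B and properdin. All of them cleave C3 and then C5, which releases the anaphylatoxins C3a and C5a and starts the assembly of the membrane attack complex. Host cells are protected by soluble regulators such as C1 inhibitor (Serping1) and by membrane regulators such as Cd55 and Cd59. Most circulating components come from the liver, while C1q and properdin come largely from myeloid cells, and fibroblasts and epithelia also make several components.

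Library totals ran from 29451800 to 36375313 counts in NeMO and from 27212499 to 33459048 counts in Sham. By these totals 1 CPM, the read count scaled to library size, equals 27.2 to 36.4 reads. The CPM given here are further scaled by TMM factors of 0.960 to 1.03, which shifts these read numbers slightly. The tissue label was checked against marker genes. The 6 urothelial markers summed to between 4176 and 6223 CPM in NeMO and between 5156 and 6864 CPM in Sham. The 5 smooth muscle markers summed to between 23801 and 44038 CPM in NeMO and between 29448 and 37460 CPM in Sham. NeMO replicate 2 stood low for the complement genes, with the lowest NeMO value of 22 of the 31 members. Sham replicate 1 held the highest Sham value of 15 of the 31, and its 10 interferon-response genes summed to 942 CPM, against 157 to 207 CPM in the NeMO libraries and 202 to 236 CPM in the other Sham libraries. The part of either library in the results was not tested beyond the values given without it.

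The bladder expressed complement over a wide range of levels. Levels are compared between genes as CPM per kilobase of exon, averaged over the 8 libraries. Serping1, the inhibitor of C1r, C1s and the MASP proteases, was highest at 190 CPM per kilobase, followed by C3 at 142 and the protease C1s1 at 108. C1qb followed at 70.5, Clu at 67.3 and C1qa at 66.6 CPM per kilobase. At the low end were Masp2 at 0.320, Masp1 at 0.227 and C5 at 0.0868 CPM per kilobase. In all, 16 members were at 10 CPM per kilobase or above, 7 were between 1 and 10, and 8 were under 1. The 31 members together took 0.208% to 0.275% of all counts in NeMO libraries and 0.276% to 0.342% in Sham libraries. These ranges did not overlap, by a narrow margin between NeMO replicate 3 and Sham replicate 3. The share rests largely on a few genes. C3 alone made up 19.7% to 27.1% of member counts in NeMO and 23.3% to 34.1% in Sham. C3, Serping1, C1s1 and Clu together made up 58.2% to 63.8% in NeMO and 59.8% to 67.7% in Sham.

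**Figure D1:**
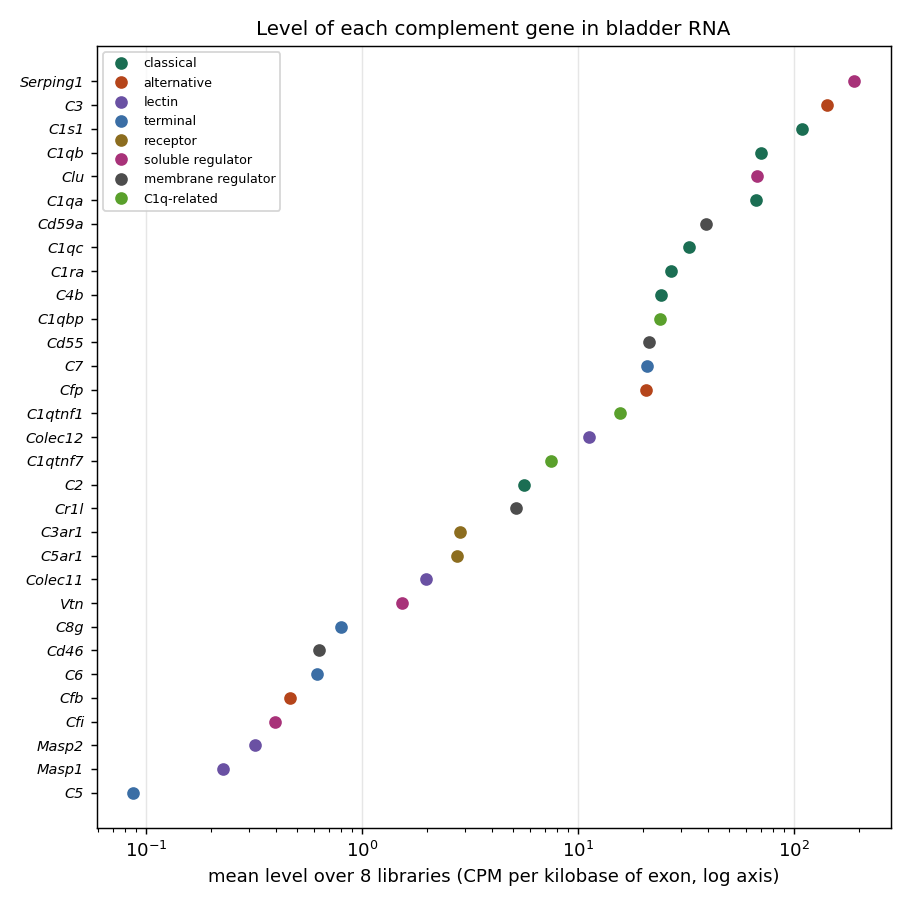
Mean level of each of the 31 complement genes over the 8 libraries, in CPM per kilobase of exon on a log axis, coloured by role. Serping1 at 190, C3 at 142 and C1s1 at 108 CPM per kilobase lie at the top and C5 at 0.0868 at the bottom.

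Between NeMO and Sham no member passed the test, edgeR's quasi-likelihood F-test with batch and group as terms and Benjamini-Hochberg adjustment over all 16370 genes at 0.05. The test called 0 of 31 members, against a background of 12 genes, or 0.0733%, in either direction. At an unadjusted p under 0.05, 3 members were higher in NeMO (background 9.38% of genes) and 9 were lower (background 9.14%). DESeq2's Wald test with the same terms called 2 members higher, Colec12 and C1qtnf7 (background 3.26%), and 3 lower, C3, Cfp and Clu (background 2.27%). The fold change was above 0 for 12 members and below 0 for 19, and 51.7% of all genes tested were below 0. The median log2 fold change of the members was −0.20, beside −0.01 for all genes tested.

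The groups did not overlap for 6 members, all lower in NeMO: Cfp, C7, C8g, Serping1, Clu and C1qbp. No member had all NeMO libraries above all Sham libraries. The background was 3.81% of genes for non-overlap with NeMO lower and 4.39% with NeMO higher. Within each batch in turn, NeMO and Sham libraries were apart in the same direction for 10 members that were lower (background 9.32%) and 4 that were higher (background 9.13%). The 4 were Colec12, C5, Cfi and C1qtnf7. In batch 2 this rests on 1 Sham library.

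**Figure D2:**
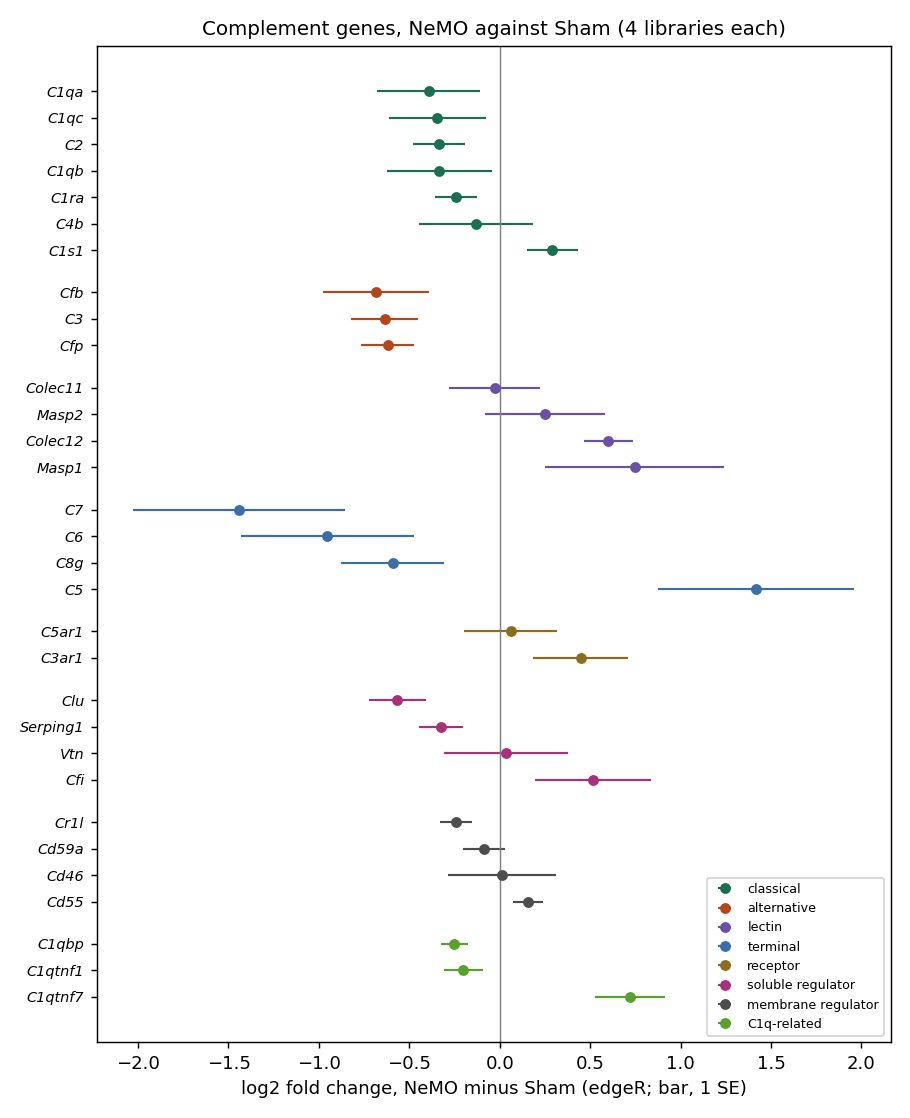
Log2 fold change, NeMO minus Sham, of the 31 complement genes grouped by role, with bars of 1 SE from edgeR (4 libraries a group). The 3 alternative pathway genes lie between −0.69 and −0.62, C7 is lowest at −1.44 and C5, on 3 to 38 reads a library, is highest at 1.42.

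C1q, the recognition molecule of the classical pathway, is built from the products of C1qa, C1qb and C1qc, which lie next to each other on the minus strand of chromosome 4. The gap between C1qb and C1qc is 3616 bases and that between C1qc and C1qa is 2851 bases. Promoter windows, here the 250 bases before the start of transcription, were taken from RefSeq (GRCm38.p6, the patch release of mm10), which gave a window for 20 of the 31 members. They were searched on both strands for the PU box GAGGAA, a motif of myeloid transcription factors, for the interferon-gamma activated site TTCNNNGAA (GAS) and for the interferon-stimulated response element (ISRE), here GAAA followed after any 2 bases by GAAA again. Of the 20 members, 3 held the PU box, 4 the GAS and 2 the ISRE. Among all 32851 promoter windows of the same length the shares were 23.3%, 7.02% and 2.98%. The only overlapping matches were the GAS and ISRE of Colec11. The C1qb and C1qc windows are shown because these neighbours kept close proportions in every library. Each holds 1 PU box, in capitals: 30 to 25 bases before the start in C1qb (chr4:136886201-136886450, minus strand), and on the opposite strand, 193 to 188 bases before it, in C1qc (chr4:136892915-136893164, minus strand). A match describes the letters and does not show binding.
C1qb: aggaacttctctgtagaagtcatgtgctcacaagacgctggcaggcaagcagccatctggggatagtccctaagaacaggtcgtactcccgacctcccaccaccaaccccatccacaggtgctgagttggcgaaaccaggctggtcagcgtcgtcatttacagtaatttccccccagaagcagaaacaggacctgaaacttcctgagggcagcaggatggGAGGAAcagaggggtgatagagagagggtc
C1qc: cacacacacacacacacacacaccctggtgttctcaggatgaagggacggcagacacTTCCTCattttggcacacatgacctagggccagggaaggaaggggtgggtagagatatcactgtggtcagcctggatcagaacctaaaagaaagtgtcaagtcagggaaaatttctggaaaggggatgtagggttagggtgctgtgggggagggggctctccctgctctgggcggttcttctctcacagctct

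C1qa measured 53.6, 29.8, 76.4 and 74.7 CPM in NeMO replicates 1 to 4, against 94.8, 78.5, 71.5 and 74.5 CPM in Sham replicates 1 to 4. NeMO replicate 2 was far below every other library, and NeMO replicates 3 and 4 lay within the Sham range. Its log2 fold change was −0.39 (SE 0.29, edgeR adjusted p = 0.507). C1qb measured 70.8, 31.6, 84.2 and 77.3 CPM in NeMO and 115, 78.5, 75.7 and 79.7 CPM in Sham, with a log2 fold change of −0.33 (SE 0.29, edgeR adjusted p = 0.584). For C1qc the values were 56.5, 26.3, 66.9 and 65.0 CPM in NeMO and 90.6, 70.3, 69.1 and 60.5 CPM in Sham, with a log2 fold change of −0.35 (SE 0.27, edgeR adjusted p = 0.535). The groups overlapped for all 3 genes. Without NeMO replicate 2 the log2 fold changes were −0.23 for C1qa, −0.16 for C1qb and −0.19 for C1qc. Without NeMO replicate 4 they were −0.61, −0.53 and −0.56 in the same order.

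The 3 C1q chains kept their proportions while their sum varied. C1qa made up 29.6% to 34.4% of the C1q sum in NeMO and 31.5% to 34.7% in Sham, C1qb 35.6% to 39.1% in NeMO and 34.6% to 38.4% in Sham, and C1qc 29.4% to 31.2% in NeMO and 28.2% to 32.0% in Sham. The sum itself was 181, 87.8, 228 and 217 CPM in NeMO and 301, 227, 216 and 215 CPM in Sham. Of 10 macrophage markers, 1 had a fold change above 0 and 9 below, none was called by edgeR or DESeq2, and none was at 0. At an unadjusted edgeR p under 0.05, 2 were lower (background 9.14% of genes): Cd163, with a log2 fold change of −1.10, and Cd68, with −0.26. The 10 markers summed to 580, 332, 732 and 577 CPM in NeMO and to 852, 617, 666 and 573 CPM in Sham. NeMO replicate 2 was lowest and Sham replicate 1 highest in both sums. Lyz2 was the largest marker in every library, at 131 to 346 CPM in NeMO and 248 to 377 CPM in Sham. The C1q sum divided by the macrophage marker sum was 0.264 to 0.377 in NeMO and 0.325 to 0.375 in Sham, and these ranges overlapped. In whole tissue, fewer cells of a type and less RNA per cell cannot be told apart.

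**Figure D3:**
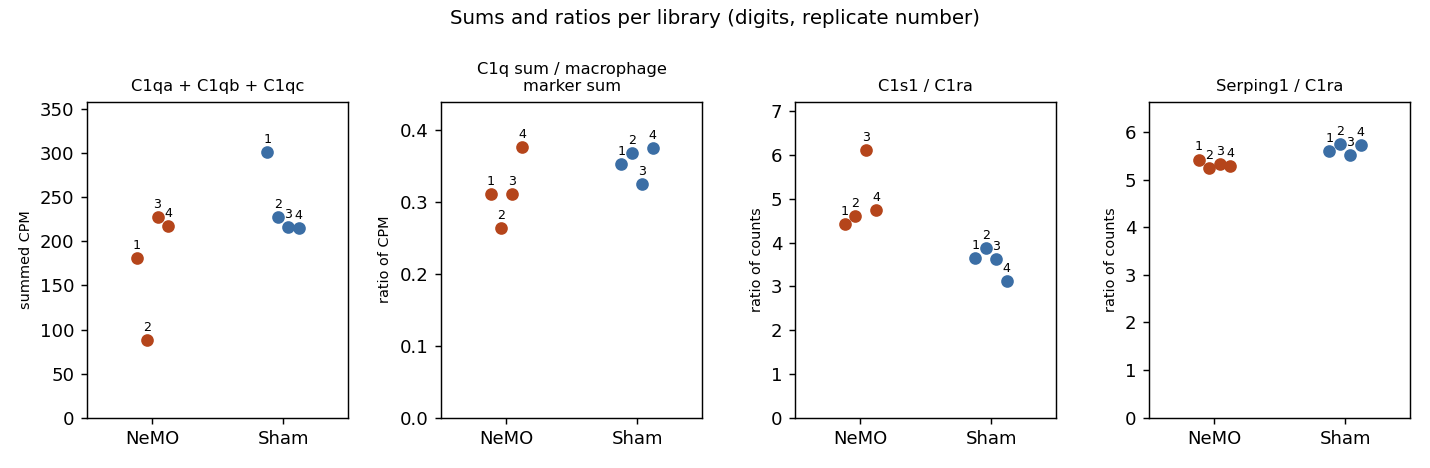
Sums and ratios in each library, NeMO left and Sham right, with replicate numbers beside the points: summed CPM of C1qa, C1qb and C1qc, that sum over the macrophage marker sum, and the count ratios C1s1 to C1ra and Serping1 to C1ra. The C1q sum overlaps between groups, while C1s1 to C1ra lies between 4.41 and 6.12 in NeMO and between 3.13 and 3.88 in Sham.

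The proteases C1r and C1s form the catalytic tetramer of C1, and their genes differed in direction. C1s1 measured 345, 277, 470 and 349 CPM in NeMO and 408, 318, 304 and 243 CPM in Sham. The groups overlapped, with NeMO replicate 3 highest and Sham replicate 4 lowest. Its log2 fold change was 0.29 (SE 0.14, edgeR adjusted p = 0.311), the only one above 0 among the 7 classical genes, and 0.18 without NeMO replicate 3. C1ra measured 78.1, 60.2, 76.8 and 73.8 CPM in NeMO and 112, 81.9, 84.1 and 77.6 CPM in Sham. NeMO replicate 1 was just above Sham replicate 4, so the groups overlapped, and the log2 fold change was −0.24 (SE 0.11, edgeR adjusted p = 0.296), or −0.15 without Sham replicate 1.

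Within each library, reads on C1s1 outnumbered those on C1ra by 4.41, 4.60, 6.12 and 4.74 to 1 in NeMO and by 3.65, 3.88, 3.62 and 3.13 to 1 in Sham. All NeMO libraries were above all Sham libraries. This ratio was picked with its values already known, so no test is given, and a ratio within a library shows unequal change and not which gene changed. The longest transcripts differ little in length (2946 bases for C1s1 and 2981 for C1ra), with 47.0% and 50.9% GC. The ratio of Serping1 to C1ra moved less, between 5.24 and 5.42 in NeMO and between 5.51 and 5.74 in Sham, also without overlap. The counting setting for strand is not given, and the antisense transcript Gm16567, at a mean of 2.26 CPM, overlaps C1s1.

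C1ra and C1s1 lie on opposite strands of chromosome 6 with their 3′ ends 6901 bases apart. Their promoter windows are shown because these partner genes differed in direction. The window of C1ra (chr6:124512371-124512620, plus strand) and that of C1s1 (chr6:124542360-124542609, minus strand) hold none of the searched motifs, so neither has capitals.
C1ra: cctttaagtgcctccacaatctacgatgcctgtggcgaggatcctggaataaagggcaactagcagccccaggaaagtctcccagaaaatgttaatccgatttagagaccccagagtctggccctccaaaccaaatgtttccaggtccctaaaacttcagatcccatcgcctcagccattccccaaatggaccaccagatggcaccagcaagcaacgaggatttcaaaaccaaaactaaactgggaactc
C1s1: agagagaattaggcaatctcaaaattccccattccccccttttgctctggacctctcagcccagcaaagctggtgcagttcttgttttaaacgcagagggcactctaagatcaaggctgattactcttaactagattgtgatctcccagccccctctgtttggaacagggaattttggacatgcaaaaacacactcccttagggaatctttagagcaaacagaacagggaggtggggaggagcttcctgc

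C2 and C4b supply the classical and lectin C3 convertase. C2 measured 19.3, 14.4, 21.4 and 20.6 CPM in NeMO and 27.8, 28.2, 21.0 and 22.2 CPM in Sham. Only NeMO replicate 3 exceeded the lowest Sham library, and the log2 fold change was −0.34 (SE 0.14, edgeR adjusted p = 0.250). Zbtb12, at a mean of 14.1 CPM, overlaps C2 on the opposite strand, and the strand setting of the counting is not given. C4b measured 161, 72.7, 123 and 159 CPM in NeMO and 215, 137, 104 and 132 CPM in Sham. The groups overlapped broadly, and the log2 fold change was −0.13 (SE 0.31, edgeR adjusted p = 0.863). Without Sham replicate 1 it was 0.066, and without NeMO replicate 2 it was 0.011. C4b has a near-identical copy, C4a. C4b held 97.7% to 99.2% of the reads counted on the pair in NeMO and 98.6% to 99.4% in Sham, and how shared reads were counted is not given.

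The 3 alternative pathway genes were all lower in NeMO, with log2 fold changes from −0.69 to −0.62. All 3 had an unadjusted p under 0.05 (background 9.14% of genes for NeMO lower), and edgeR called 0 of them after adjustment. C3, the protein on which all pathways converge, measured 543, 536, 526 and 719 CPM in NeMO and 785, 1158, 652 and 905 CPM in Sham. NeMO replicates 1 to 3 were below every Sham library, and NeMO replicate 4 was above Sham replicate 3. The means were 581 ± 92.2 CPM in NeMO and 875 ± 215 CPM in Sham (SD, n = 4 each). On the log2 scale the fold change was −0.64 (SE 0.19), with an adjusted p of 0.142 in edgeR and 0.0140 in DESeq2. Within batch 1 it was −0.69 and within batch 2 it was −0.52.

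Properdin, the product of Cfp, stabilises the alternative C3 convertase. Cfp measured 34.9, 22.2, 25.1 and 27.2 CPM in NeMO and 50.1, 36.6, 50.5 and 38.4 CPM in Sham. Every NeMO library was below every Sham library, by the narrowest margin between NeMO replicate 1 and Sham replicate 2. Its log2 fold change was −0.62 (SE 0.15), with an adjusted p of 0.103 in edgeR and 0.00746 in DESeq2. Without NeMO replicate 1 it was −0.75 with an edgeR adjusted p of 0.0351, in a fit that called 3.92% of all genes. The 10 macrophage markers, whose sums are given above with C1q, ran from 332 to 732 CPM in NeMO and from 573 to 852 CPM in Sham. Their part in the Cfp values was not tested.

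Factor B (Cfb) carries the protease of the alternative convertase. It was scarce, on 26 to 49 reads in NeMO and 37 to 58 reads in Sham. Cfb measured 1.09, 0.960, 0.757 and 1.36 CPM in NeMO and 1.09, 1.59, 1.38 and 2.20 CPM in Sham. NeMO replicate 4 was above Sham replicate 1, so the groups overlapped, and the log2 fold change was −0.69 (SE 0.29, edgeR adjusted p = 0.253). Cfb starts 85 bases beyond the 3′ end of C2 on the same strand of chromosome 17, and how reads at the junction were assigned is not given.

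**Figure D4:**
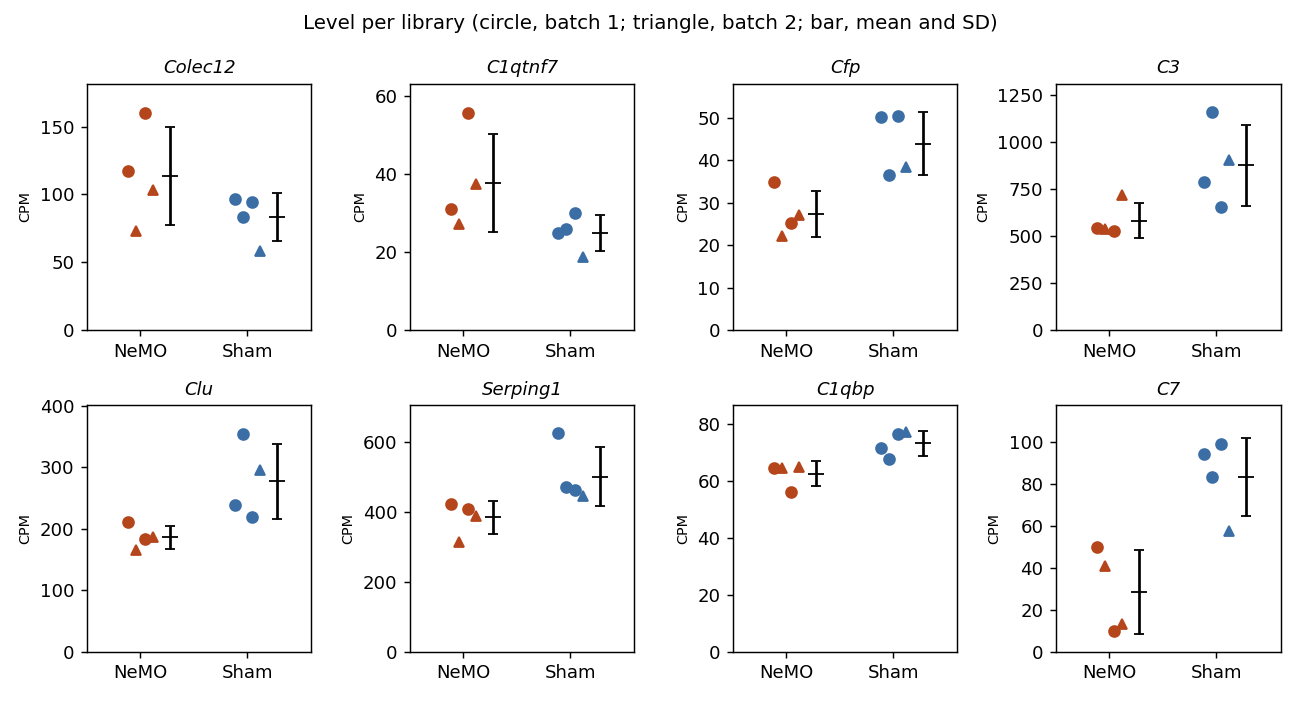
Level in CPM of 8 complement genes in each library, NeMO left and Sham right, with circles for batch 1, triangles for batch 2 and bars for mean and SD (n = 4 each). Cfp, Clu, Serping1, C1qbp and C7 do not overlap between groups, while Colec12, C1qtnf7 and C3 do.

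In the lectin pathway, Colec12 had the smallest p of all members. It encodes a membrane collectin that acts as a scavenger receptor. Colec12 measured 118, 73.3, 160 and 103 CPM in NeMO and 96.8, 83.4, 94.1 and 58.3 CPM in Sham. Across all libraries the groups overlapped, since NeMO replicate 2 was below 3 Sham libraries. Within batch 1, the NeMO values of 118 and 160 CPM stood above the Sham values of 83.4 to 96.8 CPM, and within batch 2, the NeMO values of 73.3 and 103 CPM stood above the 58.3 CPM of the 1 Sham library. The log2 fold change was 0.60 (SE 0.13), with an adjusted p of 0.0940 in edgeR and 0.00284 in DESeq2. Without the batch term it was 0.45, with an edgeR adjusted p of 0.437. Without NeMO replicate 1 it was 0.72, with an edgeR adjusted p of 0.0278, in a fit that called 3.92% of all genes.

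The other 3 lectin pathway genes were low, with log2 fold changes from −0.03 to 0.75 and edgeR adjusted p of 0.456 or more. Masp1, whose protease activates Masp2, measured 1.38, 1.23, 4.37 and 4.29 CPM in NeMO and 1.18, 1.14, 2.04 and 2.20 CPM in Sham. NeMO replicates 3 and 4 stood above all Sham libraries, and NeMO replicates 1 and 2 lay within the Sham range. Without NeMO replicate 3 its log2 fold change was 0.12, against 0.75 with all libraries. Rtp4, at a mean of 14.6 CPM, overlaps Masp1 by 525 bases on the opposite strand. Masp2, the protease that cleaves C4 and C2, ran from 0.861 to 1.25 CPM in NeMO and from 0.589 to 1.18 CPM in Sham. It shares its locus with Tardbp on the opposite strand, at a mean of 267 CPM, so its few reads are uncertain. Colec11, a soluble collectin, ran from 2.68 to 4.05 CPM in NeMO and from 2.15 to 3.62 CPM in Sham.

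C7 had the most negative fold change of the members. It encodes the component that anchors the growing membrane attack complex to lipid. C7 measured 49.6, 41.0, 9.76 and 13.0 CPM in NeMO and 94.3, 83.0, 98.8 and 57.4 CPM in Sham. Every NeMO library was below every Sham library, and NeMO replicates 3 and 4 were well below NeMO replicates 1 and 2. The means were 28.35 ± 19.95 CPM in NeMO and 83.35 ± 18.55 CPM in Sham (SD, n = 4 each). The log2 fold change was −1.44 (SE 0.59, edgeR adjusted p = 0.261), DESeq2 gave an adjusted p of 0.188, and leaving out 1 library at a time gave −2.16 (without NeMO replicate 1) to −0.98 (without NeMO replicate 3).

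Fibroblast markers did not share 1 order over the NeMO libraries in which C7 was spread. Col1a1, the gene for a chain of type I collagen, was highest in NeMO replicates 3 and 4, with 1830, 1666, 5092 and 3477 CPM in NeMO and 2643, 1785, 2066 and 2367 CPM in Sham. Dpt, which encodes dermatopontin, was lowest in those replicates, as C7 was, with 199, 175, 143 and 158 CPM in NeMO and 260, 195, 224 and 211 CPM in Sham. Pdgfra, Dcn, Lum and Pi16 followed neither order. The 6 markers had 4 fold changes above 0 and 2 below, none was called by edgeR or DESeq2, and none was at 0. Their sum, of which Col1a1 and Dcn made up most, ran from 4785 to 9486 CPM in NeMO and from 5382 to 6967 CPM in Sham, and their part in the C7 values was not tested.

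The promoter window of C7 (chr15:5063774-5064023, minus strand) is shown because it had the widest difference among well-counted members. It holds 1 GAS, in capitals, 164 to 156 bases before the start. The window of C1qtnf7 (chr5:43515319-43515568, plus strand), a gene higher in NeMO within each batch and described below, also holds 1 GAS, 218 to 210 bases before its start. The other members with a GAS were Masp2 and Colec11, and a link between the motif and the direction of change was not tested.
C7: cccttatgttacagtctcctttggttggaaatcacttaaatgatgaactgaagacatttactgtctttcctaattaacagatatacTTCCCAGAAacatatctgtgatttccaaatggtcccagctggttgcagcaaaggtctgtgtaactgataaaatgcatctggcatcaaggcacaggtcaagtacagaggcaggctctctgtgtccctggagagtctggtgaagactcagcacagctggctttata
C1qtnf7: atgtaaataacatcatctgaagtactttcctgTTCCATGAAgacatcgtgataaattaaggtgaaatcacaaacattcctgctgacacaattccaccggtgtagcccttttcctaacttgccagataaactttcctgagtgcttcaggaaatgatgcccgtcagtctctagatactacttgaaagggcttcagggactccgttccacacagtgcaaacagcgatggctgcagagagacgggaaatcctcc

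The other terminal genes were sparse. C6, which joins C5b before C7, measured 1.98, 0.530, 1.34 and 2.10 CPM in NeMO and 4.45, 1.77, 1.83 and 3.53 CPM in Sham. The groups overlapped, and the log2 fold change was −0.95 (SE 0.48, edgeR adjusted p = 0.322). It lies 173794 bases from C7 on chromosome 15, and both were lower in NeMO. C8g, the gamma chain of C8, ran from 0.886 to 0.960 CPM in NeMO and from 1.18 to 1.92 CPM in Sham without overlap, with a log2 fold change of −0.59 (SE 0.29, edgeR adjusted p = 0.304). Its locus overlaps Fbxw5 on the opposite strand, at a mean of 93.2 CPM, and C8g reads are uncertain for that reason.

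C5, the source of C5a and of C5b, was the member with the highest fold change and the fewest reads. It was counted on 22, 17, 38 and 30 reads in NeMO and on 8, 17, 3 and 8 reads in Sham. In CPM this was 0.631, 0.563, 1.11 and 0.830 in NeMO and 0.236, 0.589, 0.0898 and 0.304 in Sham. The groups overlapped only through NeMO replicate 2 and Sham replicate 2. The log2 fold change was 1.42 (SE 0.54, edgeR adjusted p = 0.213), and DESeq2 gave an adjusted p of 0.174.

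The anaphylatoxin receptors, carried by myeloid cells among others, were at similar levels per kilobase, 2.84 CPM for C3ar1 and 2.76 CPM for C5ar1. C3ar1 measured 14.4, 6.29, 21.7 and 12.8 CPM in NeMO and 12.6, 9.59, 10.7 and 9.88 CPM in Sham. NeMO held both the highest and the lowest library, and the log2 fold change was 0.45 (SE 0.26, edgeR adjusted p = 0.401). It was 0.19 without NeMO replicate 3. It was 0.72 without Sham replicate 4, but batch 2 then has no Sham library, so that value rests on batch 1 only. C5ar1 ran from 4.64 to 12.4 CPM in NeMO and from 6.30 to 7.69 CPM in Sham, with a log2 fold change of 0.06 (SE 0.26, edgeR adjusted p = 0.926). Only NeMO replicate 1 was above the Sham range, and without it the C5ar1 log2 fold change was −0.35.

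Among the soluble regulators, Serping1 and Clu were lower in every NeMO library than in any Sham library. Serping1 measured 423, 315, 408 and 390 CPM in NeMO and 625, 470, 463 and 445 CPM in Sham. The margin between the groups was narrow except for Sham replicate 1. Its log2 fold change was −0.33 (SE 0.12, edgeR adjusted p = 0.204), and −0.23 without Sham replicate 1.

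Clusterin (Clu) keeps the terminal complex from inserting into membranes and also acts as a chaperone. Clu measured 210, 165, 183 and 186 CPM in NeMO and 239, 354, 219 and 295 CPM in Sham. The 4 NeMO libraries lay close together, while Sham replicates 2 and 4 stood above the other Sham libraries. The means were 186 ± 18.6 CPM in NeMO and 277 ± 60.8 CPM in Sham (SD, n = 4 each). This gave a log2 fold change of −0.57 (SE 0.16), with an adjusted p of 0.133 in edgeR and 0.0197 in DESeq2.

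The order of the Sham libraries was alike for C3 and Clu, with replicates 2 and 4 highest. The 6 urothelial markers summed to 4176, 6223, 4426 and 5219 CPM in NeMO and to 5156, 6452, 5299 and 6864 CPM in Sham, where replicates 2 and 4 were highest as well. In NeMO the order differed: replicate 2 had the highest urothelial sum and the lowest Clu value. All 6 urothelial markers had fold changes below 0, and none was at 0. EdgeR called none of the 6, 4 had an unadjusted p under 0.05, and DESeq2, the test that called C3 and Clu, called 4 lower (Upk1a, Upk2, Upk3a and Krt20). The 5 adipocyte markers, whose sums are given below with Cfd, ordered the NeMO libraries as C3 did, though not as Clu did. Sham replicates 2 and 4 were highest in the adipocyte sum too. Replicate 4 led in the urothelial and adipocyte sums, while replicate 2 led for C3 and Clu. In Sham the 3 mesothelial markers summed to 327, 578, 361 and 467 CPM, and the 7 acute-phase response genes to 27.6, 50.6, 27.5 and 70.4 CPM. There too replicates 2 and 4 were highest. The macrophage, fibroblast and smooth muscle sums did not have these replicates highest. The part of any of these sets in the C3 and Clu values was not tested.

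The remaining soluble regulators were low. Cfi, the protease that inactivates C3b and C4b, ran from 0.729 to 1.31 CPM in NeMO and from 0.589 to 0.838 CPM in Sham, with a log2 fold change of 0.52 (SE 0.32, edgeR adjusted p = 0.425). Vitronectin (Vtn), an adhesion protein that also blocks the terminal complex, ran from 1.95 to 4.43 CPM in NeMO and from 1.84 to 4.14 CPM in Sham, with a log2 fold change of 0.03 (SE 0.34).

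Membrane regulators had the median log2 fold change nearest 0 of the 8 roles, at −0.04, with members from −0.24 to 0.16. Cr1l, known as Crry, is the broadly expressed rodent inhibitor of C3 convertases. Cr1l measured 48.0, 54.3, 49.9 and 45.5 CPM in NeMO and 50.5, 56.3, 56.2 and 66.3 CPM in Sham. NeMO replicate 2 was above Sham replicate 1, and the log2 fold change was −0.24 (SE 0.09, edgeR adjusted p = 0.201). Without Sham replicate 4 it was −0.15, a value that rests on batch 1 only. Cd59a, which stops C9 from completing the pore, was the most abundant of the 4 at 39.1 CPM per kilobase. It measured 79.1, 58.0, 68.9 and 67.8 CPM in NeMO and 62.0, 81.1, 70.9 and 79.3 CPM in Sham, with wide overlap and a log2 fold change of −0.09 (SE 0.12, edgeR adjusted p = 0.730).

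Cd55, which speeds the decay of C3 convertases, ran from 88.7 to 130 CPM in NeMO and from 79.7 to 111 CPM in Sham, with a log2 fold change of 0.16 (SE 0.08, edgeR adjusted p = 0.337). Leaving out NeMO replicate 1 gave 0.090, and leaving out NeMO replicate 3 gave 0.24. Cd46, a cofactor for factor I that in mice is best known from testis, ran from 2.80 to 6.19 CPM in NeMO and from 3.39 to 6.54 CPM in Sham, with a log2 fold change of 0.01 (SE 0.30). A330023F24Rik overlaps Cd46 on the opposite strand, at a mean of 51.9 CPM. Cd46 and Cr1l lie 5132 bases apart on chromosome 1.

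The C1q-related genes split in direction. C1qbp, a mostly mitochondrial protein that can bind the globular heads of C1q, measured 64.6, 64.4, 55.9 and 65.0 CPM in NeMO and 71.4, 67.7, 76.4 and 77.0 CPM in Sham. All NeMO libraries were below all Sham libraries, on means of 62.5 ± 4.37 CPM in NeMO and 73.1 ± 4.42 CPM in Sham (SD, n = 4 each). Its log2 fold change was −0.25 (SE 0.07, edgeR adjusted p = 0.143), and DESeq2 gave an adjusted p of 0.108.

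C1qtnf7, a secreted protein with a C1q-like domain and no known part in the cascade, measured 30.9, 27.1, 55.6 and 37.3 CPM in NeMO and 24.7, 25.9, 30.1 and 18.7 CPM in Sham. NeMO replicate 2 was below Sham replicate 3, so the groups overlapped across batches, while within each batch all NeMO values were above the Sham values. The log2 fold change was 0.72 (SE 0.19), with an adjusted p of 0.131 in edgeR and 0.00880 in DESeq2. Without NeMO replicate 1 it was 0.93 with an edgeR adjusted p of 0.0170, in a fit that called 3.92% of all genes. Without NeMO replicate 3 it was 0.47. The related C1qtnf1 ran from 34.6 to 53.5 CPM in NeMO and from 51.9 to 54.4 CPM in Sham. Its log2 fold change was −0.20 (SE 0.11, edgeR adjusted p = 0.355). Without Sham replicate 4 it was −0.089, a value that rests on batch 1 only.

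The sign of the median differed between roles. The median log2 fold change by role was −0.33 for the classical genes, −0.64 for the alternative, 0.42 for the lectin and −0.77 for the terminal genes. It was 0.25 for the receptors, −0.15 for the soluble regulators, −0.04 for the membrane regulators and −0.20 for the C1q-related genes. Each median rests on 2 to 7 genes and differences between roles were not tested. Under at least 1 alternative 8 members changed sign, and C3ar1 and C5ar1 were below 0 in batch 2 alone.

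**Figure D5:**
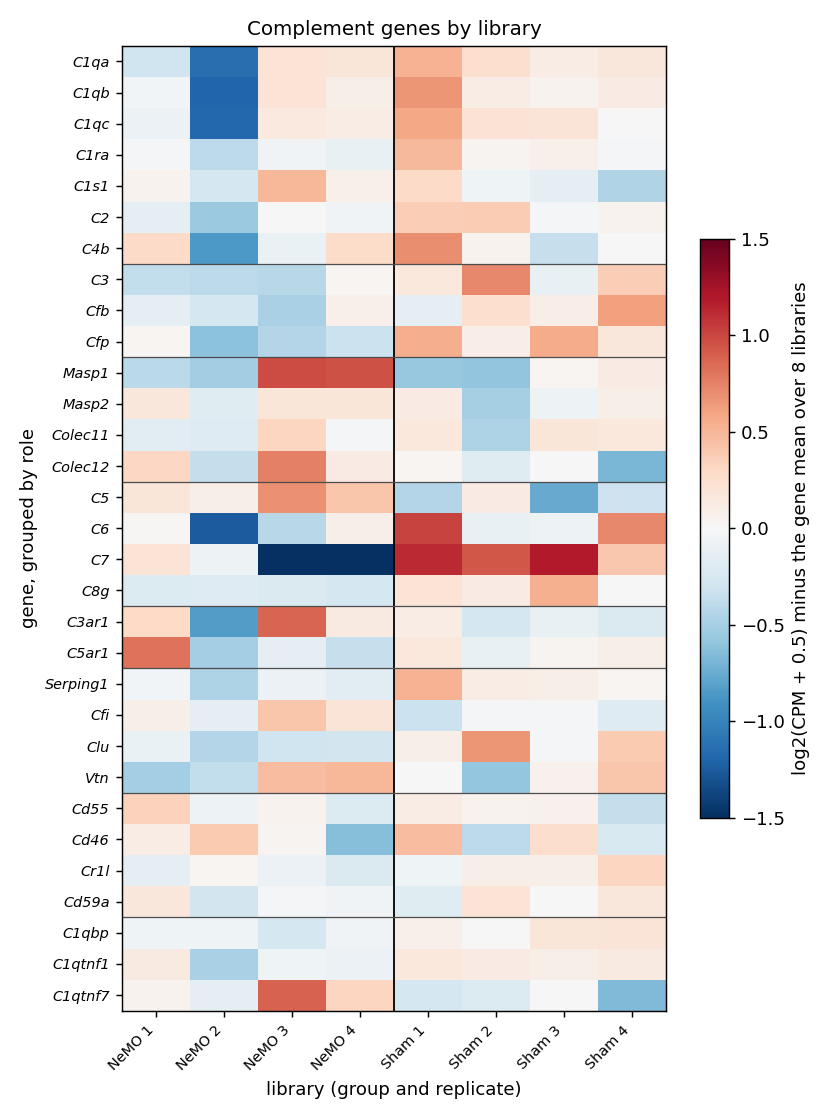
Level of the 31 complement genes in each library, as log2(CPM + 0.5) minus the gene's mean over the 8 libraries, with NeMO libraries left of the line, Sham libraries right and genes grouped by role; colours saturate at 1.5 in either direction. NeMO replicate 2 is pale to dark blue for most classical genes, and C7 is dark blue in NeMO replicates 3 and 4.

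Further complement genes outside the 31 were read from the same test. Of 33 listed, 32 were in the files and 18 passed the filter on low counts. EdgeR called 0 of the 18 in either direction. At an unadjusted p under 0.05, 2 were higher (background 9.38% of genes) and 3 lower (background 9.14%). DESeq2 called 2 higher (background 3.26%) and 1 lower (background 2.27%). The groups did not overlap for 2 of the 18, Fcna and Vsig4, both lower in NeMO (background 3.81%). Their median log2 fold change was −0.13. C8a, Mbl1, Mbl2 and Cpn2, genes known from liver, had 0 reads in 258228272 counts over all 8 libraries, which allows a mean level of up to 0.0116 CPM, for counting error only.

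Factor D (Cfd), the adipocyte protease that cleaves factor B, measured 255, 273, 98.4 and 522 CPM in NeMO and 651, 420, 309 and 1166 CPM in Sham. The groups overlapped, and the log2 fold change was −1.44 (SE 0.39), with an adjusted p of 0.143 in edgeR and 0.0318 in DESeq2. The 5 adipocyte markers summed to 513, 368, 237 and 578 CPM in NeMO and to 752, 767, 553 and 1335 CPM in Sham, with all 5 fold changes below 0 and none at 0. EdgeR called none of the 5, and DESeq2 called 1 lower, Fabp4, with a log2 fold change of −1.07 and an adjusted p of 0.000245. NeMO replicate 3 was lowest and Sham replicate 4 highest for both Cfd and this sum, and the part of fat tissue in the Cfd values was not tested.

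Ptx3, a long pentraxin that binds C1q, measured 0.803, 0.596, 3.64 and 1.05 CPM in NeMO and 0.825, 0.450, 0.419 and 0.342 CPM in Sham. The highest value, in NeMO replicate 3, was on 125 reads. Ptx3 had a log2 fold change of 1.76 (SE 0.53), with an adjusted p of 0.145 in edgeR and 0.0411 in DESeq2. Without NeMO replicate 3 it was 0.83. Vsig4, the complement receptor of tissue-resident macrophages, measured 0.344, 0.0662, 0.379 and 0.221 CPM in NeMO and 0.530, 1.25, 0.688 and 0.836 CPM in Sham. The groups did not overlap, on 2 to 13 reads in NeMO and 18 to 36 reads in Sham, and the log2 fold change was −1.60 (SE 0.50, edgeR adjusted p = 0.153).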

How the data were processed

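Polyadenylated RNA of whole mouse bladder was measured in 4 NeMO and 4 Sham libraries. Trizol extraction, DNase digestion, a directional library kit and single-end HiSeq sequencing are stated per the labels' protocols. The authors deposited whole-number read counts per gene symbol. Trimmomatic, STAR, featureCounts, DESeq2 and the build mm10 are named per the submitters' processing notes. For versions, annotation, strand setting and the handling of shared reads, the entry is: not given in the sources used here.

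Groups and replicate numbers come from the labels, and batches from a mark in the file names. Counts were fitted in R 4.3.3 with edgeR 4.0.16 (filterByExpr, minimum count 10 and minimum total count 15; TMM scaling; robust quasi-likelihood F-test; batch and group as terms; two-sided; Benjamini-Hochberg adjustment over 16370 genes; threshold 0.05). The script was tested on simulated counts. DESeq2 1.42.0 was the alternative test. SE is the log2 fold change divided by the square root of F. CPM are TMM-scaled, and exon lengths and gene positions come from GENCODE for GRCm38, where 35656 symbols matched directly and 1754 by a synonym. Of the tested genes, 98.9% had a length for the length and GC correction. Alternatives covered scaling, filter, test, batch, replicate block, each batch alone, length with GC, and each library left out.

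Members and lists were chosen with earlier results of these data known. Given in full are the 10 members with the smallest p, the highest per kilobase in each role, and C3, C1qa, C1qb, C1qc, C4b and Cfb. C1ra, C6, Masp1 and the ratios between genes were singled out after their values were seen. Of the other complement genes, the 3 with the smallest p, Cfd among them, are named, and 1 further gene of the rule is not reported here. Replicate numbers were not treated as pairs in the main fit. Correlations of same-numbered libraries' deviations were −0.00958, 0.0820, 0.0438 and 0.324, and those between different numbers ran from −0.249 to 0.255. With 4 libraries a group, these values cannot exclude pairing. No 2 libraries of a group agreed within sampling noise.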

Additional observations from a re-analysis of the deposited data

Results flagged for a closer look

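In 7 of 62 sets of 4 libraries (31 members in 2 groups), 1 library stood far from the other 3 by Dixon's test at the 95% level. Chance flags about 1 in 20 such sets. C3 measured 719 CPM in NeMO replicate 4, against 526 to 543 CPM in the other NeMO libraries. C1qbp measured 55.9 CPM in NeMO replicate 3, against 64.4 to 65.0 CPM in the others. Masp2 measured 0.861 CPM in NeMO replicate 2, against 1.23 to 1.25 CPM. In Sham replicate 1, C1qb measured 115 CPM, against 75.7 to 79.7 CPM in the other Sham libraries, and Serping1 measured 625 CPM, against 445 to 470 CPM. Colec11 measured 2.15 CPM in Sham replicate 2, against 3.56 to 3.62 CPM. Cd55 measured 79.7 CPM in Sham replicate 4, against 106 to 111 CPM.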

How the results depend on the processing

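Over 16 alternatives the median log2 fold change of the members stayed below 0, between −0.33 and −0.10, and 23 of 31 members kept their sign. The count of all genes called, 12, was 172 with no filter, 7 without the batch term, 0 with the replicate block, 0 in batch 1 alone, 7 in batch 2 alone, 866 with DESeq2, and 0 to 652 when 1 library was left out. By library, that fit called 652 without NeMO replicate 1, 50 without NeMO replicate 2, 7 without NeMO replicate 3, 0 without NeMO replicate 4 or Sham replicate 4, 3 without Sham replicate 1 and 4 without Sham replicate 2. Batch 2 alone has 1 Sham library, assumed to vary like its NeMO libraries. Without Sham replicate 4, batch 2 holds no Sham library. With the batch term that fit then compares the groups within batch 1 only and nearly repeats batch 1 alone. Members called were 2 higher and 3 lower with DESeq2, and 0 to 2 higher and 0 to 1 lower when 1 library was left out. For the other complement genes these were 2 higher and 1 lower with DESeq2, and 0 to 2 higher when 1 library was left out. Ptx3 was called without NeMO replicate 1 (2.17, edgeR adjusted p = 0.0411).

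Log2 fold changes reversed for 8 members. With the replicate block, C5ar1 was −0.10 and Cd46 −0.066. In batch 1 alone Colec11 was 0.13, Cd46 −0.092 and Cd59a 0.053. In batch 2 alone Masp2 was −0.10, C3ar1 −0.036, C5ar1 −0.54 and Vtn −0.31. With length and GC offsets Colec11 was 0.11 and Cd46 −0.12. Cd46 was −0.058 without the batch term. Leaving out 1 library gave −0.32 to 0.066 for C4b, −0.24 to 0.13 for Colec11, −0.35 to 0.40 for C5ar1, −0.38 to 0.24 for Vtn, −0.20 to 0.15 for Cd46 and −0.18 to 0.052 for Cd59a. The upper ends for Colec11, C5ar1, Vtn and Cd59a came from the fit without Sham replicate 4, which nearly repeats batch 1 alone. The cause of the reversals was not tested. Whether the replicate numbers pair the samples could not be settled from 4 libraries a group, and with the block 0 members were called. Not every library correlated best with its own number. Low counts limit C5, Cfb, Cfi, C8g, Masp1, Masp2 and C6, with 3 to 155 reads a library.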
